A study of Mus musculus with 18 samples.

Results

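Connective tissue cells of the mouse oral mucosa were compared with cells of the same genetic lineage from the cranial dermis, using the 3 arrays titled Oral and the 3 titled Cranial among the 18 arrays of the series. Both groups were chosen by their titles alone, and all 18193 genes with a probe set of a single gene symbol were tested as Oral minus Cranial on these 6 arrays. The series as a whole measured sorted dermal cell populations of 6 kinds in search of fibroblast lineages behind scarring and tumour stroma. Oral and Cranial cells were both taken from untreated Wnt1Cre; R26mTmG mice at postnatal day 30, an age the labels call adult. Both were sorted for green and against red fluorescence, and for absence of endothelial CD31 and Tie2, leukocyte CD45, epithelial EpCAM, a marker spelled Tie119 in the labels, and the dead-cell dye DAPI. In R26mTmG mice every cell is red until Cre recombinase switches it, and all its descendants, to green. Wnt1Cre is active in Wnt1-expressing cells of the embryo, so green marks descent from such a cell and not Wnt1 expression in the adult. The only difference between the groups that the labels record is the tissue. The labels do not say whether arrays of a group came from separate or pooled animals, so p-values measure only the spread between these arrays. Levels in the 3 Dorsal and 3 Ventral arrays, green cells of the dorsal and ventral dermis of En1Cre; R26mTmG mice of the same age, are given beside some genes as a description. En1Cre marks descendants of cells that expressed Engrailed-1.

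Neural crest cells leave the dorsal neural tube of the embryo, where Wnt1 is expressed, and form most connective tissue of the face and mouth as well as nerve sheath and pigment cells. Fibroblasts made from them keep parts of an embryonic code of homeobox and other patterning factors that marks where in the head they arose. Oral mucosa and hairy skin differ in their epithelium, in the presence of hair follicles and in how they heal, and fibroblasts of both tissues supply matrix, growth factors and immune signals to their neighbours.

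All values are log2 expression, so a difference of 1 is a 2-fold change. Across genes, arrays of the same group correlated at 0.9945 to 0.9967 in Oral and 0.9971 to 0.9982 in Cranial, and arrays of different groups at 0.9854 to 0.9902. The median SD per gene was 0.135 in Oral and 0.104 in Cranial, against 0.282 in Dorsal and 0.141 in Ventral. The lower quartile of the 6 arrays lay between 3.93 and 4.003, and a group mean at or below it is called near background: the true difference from such a mean may be larger than the one measured. Ptprc, which encodes CD45, and Pecam1, which encodes CD31, were near background in both groups. So were the Y-linked genes Eif2s3y, Kdm5d and Uty. Eif2s3y averaged 7.20 ± 0.52 (SD) in Dorsal and 5.70 ± 1.44 in Ventral. Kdm5d averaged 4.15 and 3.78 at these sites, and Uty 3.68 and 3.69. The X-linked Xist averaged 11.24 in Oral, 11.22 in Cranial, 11.18 in Dorsal and 11.12 in Ventral. The part of sex in differences from the Dorsal and Ventral arrays was not tested. All 24 probe sets for the poly-A spike-in RNAs, which are added to a sample before labelling, were lower in every Oral than in every Cranial array, with a median difference of -0.72. The 18 hybridization spike-in probe sets had a median difference of 0.11 and none separated the groups. The part of the poly-A spike-in difference in the results below was not tested.

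More genes were called lower than higher in oral cells, though not in every treatment of the data, and the large differences were mostly lower ones. At an adjusted p under 0.05 in limma, 1795 of 18193 genes (9.87%) were called. Of these, Oral was higher in 695 (3.82% of all genes) and lower in 1100 (6.05%). At least 2-fold differences were found in 337 (1.85% of all genes), 81 higher (0.445%) and 256 lower (1.41%). For 4712 genes (25.9%) the 3 arrays of a group lay beyond all 3 of the other. The median difference over all genes was 0.04, and 59.3% of all differences were above 0. Without Cranial replicate 1 the calls numbered 1164, with 377 higher, and the higher calls numbered 398 without Cranial replicate 2. Without Oral replicate 3 the order reversed, with 1231 higher and 1051 lower. It also reversed with array weights, with 1885 higher and 1423 lower. When the Dorsal and Ventral arrays, with the median SDs given above, shared the estimate of spread, 207 genes were called, all of them among the 1795 and in the same direction. In bulk samples a lower level cannot be told apart from fewer cells of a type that express the gene.

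**Figure D1:**
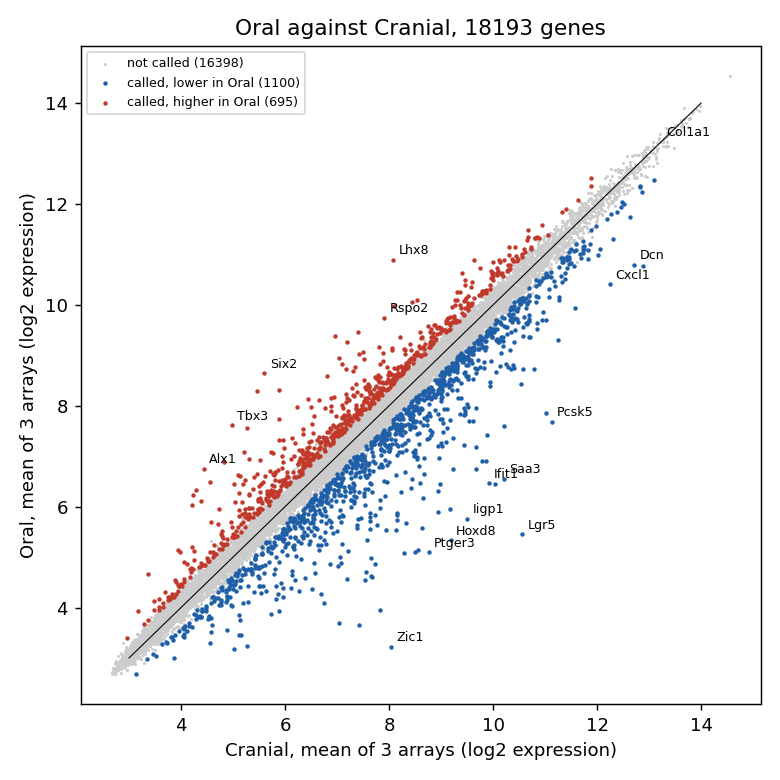
Mean log2 expression of 18193 genes in 3 Cranial arrays (horizontal axis) and 3 Oral arrays (vertical axis), with the diagonal of equal levels. The 1100 lower genes are blue and the 695 higher genes red; the blue points reach farther from the diagonal than the red ones, Lgr5 and Zic1 the farthest.

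The largest differences joined genes of unlike roles. Lgr5, a receptor for R-spondins that strengthens Wnt signalling, was at 5.68, 5.53 and 5.15 in Oral and 10.49, 10.45 and 10.74 in Cranial. This was the largest difference of any gene, -5.11 ± 0.14 (SE), or 34.5-fold lower (adjusted p = 8.9e-12), with no overlap between the groups. Chl1, a neural cell adhesion molecule, averaged 3.95 ± 0.17 (SD, n = 3), near background, in Oral against 7.83 ± 0.09 in Cranial. Cyp4b1, a cytochrome P450, averaged 6.44 ± 0.14 against 10.03 ± 0.13, and Saa3, an acute-phase serum amyloid, 6.55 ± 0.22 against 10.20 ± 0.03. Clca3a1, of a family of chloride channel accessory proteins, averaged 3.65 ± 0.27, near background, against 7.43 ± 0.07, and differed by -1.76, still called, without cross-hybridizing probe sets. On the higher side, the water channel gene Aqp1 averaged 9.26 ± 0.14 in Oral and 7.20 ± 0.08 in Cranial (difference 2.07 ± 0.11, adjusted p = 4.7e-09). Entpd3, an ectonucleotidase, was higher by 2.02 ± 0.11, Vat1l by 1.92 ± 0.11 and the transcript AI606473, of no named function, by 2.83 ± 0.11. Averaging all probe sets of a gene, in place of the brightest, gave -2.87 for Lgr5 and -1.18 for Chl1, both still called.

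**Figure D2:**
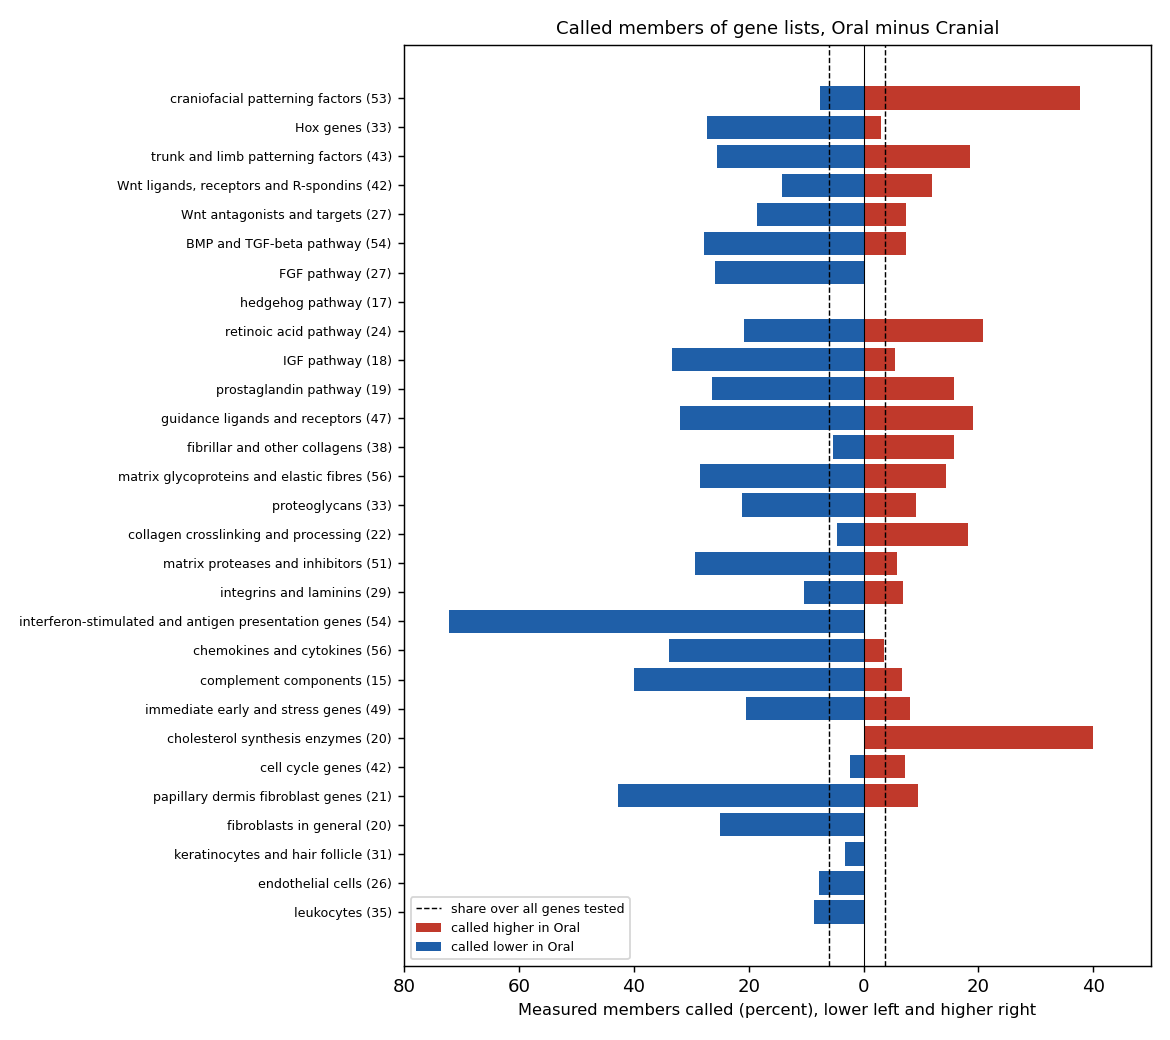
Percent of measured members of 29 gene lists that were called, with genes lower in Oral to the left (blue) and higher ones to the right (red), with the number measured in brackets. Dashed lines mark the shares over all genes, 6.05% lower and 3.82% higher; the interferon list reaches 72.2% lower, and the craniofacial and cholesterol lists 37.7% and 40% higher.

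Interferon-stimulated genes had the highest share of lower genes of any list examined. These genes encode antiviral proteins, guanylate-binding proteins, immunoproteasome subunits and the antigen presentation machinery, and many carry an interferon-stimulated response element in their promoters. Of 54 measured members, 39 (72.2%) were lower and 0 higher, 25 of them at least 2-fold, against 6.05% of all genes lower. The list's median difference was -0.92 against 0.04 over all genes, and 50 of the 54 differences were below 0. Averaged over the list, the level was 6.83 to 6.91 in the 3 Oral arrays and 8.05 to 8.12 in the 3 Cranial arrays. The Dorsal and Ventral arrays scattered widely in these genes, and only 6 of the 39 stayed called when those arrays shared the estimate of spread, and 10 when all 18 arrays did.

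Promoters of these genes are shown because the members moved together and their known response element can be read in the sequence. The element was searched as GAAA, any 2 bases and GAAA on both strands in RefSeq promoters of build GRCm38.p6, from 250 bases before to 50 after the gene's start; on the opposite strand it reads TTTC, any 2 bases and TTTC. It was found in 15 of the 30 members called lower with a promoter in the table (50%), in 2 of 10 members not called (20%), in 3.63% of the 14452 genes tested that had a promoter, and in 3.44% of all 32851 promoters. Among all genes called lower it was in 74 of 833 promoters (8.88%), and among those called higher in 12 of 545 (2.20%). The 5 windows below, of 60 bases, all lie upstream of the start and were chosen after the values were seen, with the element in capitals. They are Ifit1 at chr19:34640760-34640819 (plus strand), Gbp3 at chr3:142559974-142560033 (plus strand), Bst2 at chr8:71537568-71537627 (minus strand), Rsad2 at chr12:26456538-26456597 (minus strand) and Gbp7 at chr3:142530258-142530317 (plus strand).
Ifit1: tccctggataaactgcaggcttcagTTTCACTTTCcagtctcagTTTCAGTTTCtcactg
Gbp3: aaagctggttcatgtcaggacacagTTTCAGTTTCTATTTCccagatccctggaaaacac
Bst2: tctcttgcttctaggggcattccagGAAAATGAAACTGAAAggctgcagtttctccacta
Rsad2: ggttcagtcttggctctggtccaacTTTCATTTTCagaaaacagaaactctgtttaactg
Gbp7: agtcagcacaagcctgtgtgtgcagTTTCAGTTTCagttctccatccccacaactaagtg
Ifit1 shows the element at 2 places, and in Gbp3 and Bst2 overlapping copies run together into a longer stretch of capitals. A match is a description of these letters and not of binding.

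The antiviral genes with these promoters separated the groups in every array. Ifit1, which encodes a protein that binds viral RNA, was at 6.33, 6.69 and 6.40 in Oral and 10.05, 9.97 and 9.72 in Cranial, a difference of -3.44 ± 0.12 (10.9-fold, adjusted p = 8.7e-11). All 3 Oral arrays lay over 3 log2 units below all Cranial arrays. Gbp3, a guanylate-binding protein of host defence, was at 6.83, 6.76 and 6.68 in Oral and 9.60, 9.56 and 9.88 in Cranial (-2.92 ± 0.11, adjusted p = 1.6e-10). Bst2, or tetherin, which holds budding virus at the cell surface, was at 7.21, 7.28 and 7.07 against 9.69, 9.62 and 9.71 (-2.49 ± 0.10, adjusted p = 3.1e-10). Gbp3 and Bst2 were called in all 17 alternative treatments of the data, while Ifit1 was not called in the fits with Dorsal and Ventral arrays. Rsad2, or viperin, and Gbp7 differed by -1.89 ± 0.12 and -1.59 ± 0.11.

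Regulators and effectors of the interferon response were lower alongside. Usp18, which removes the ubiquitin-like ISG15 and damps interferon signalling, was at 5.04, 5.26 and 5.02 in Oral and 8.47, 8.45 and 8.60 in Cranial (-3.40 ± 0.11, adjusted p = 3.0e-11). Iigp1, an immunity-related GTPase, averaged 5.76 ± 0.11 against 9.51 ± 0.07, the largest difference in the list at -3.75 ± 0.10. Oasl2, of the oligoadenylate synthetase family, averaged 5.07 ± 0.10 against 8.28 ± 0.14 and was called in every alternative. Ifi27l2a differed by -3.22 ± 0.14 and Ifi204, a DNA sensor near background in Oral, by -3.34 ± 0.16. Irf9, a transcription factor of the interferon response that binds this element, was at 7.02, 7.12 and 7.13 in Oral and 8.19, 8.16 and 8.20 in Cranial (-1.09 ± 0.10, adjusted p = 1.7e-06), and Stat2 differed by -0.94 ± 0.10. Irf7 differed by -1.50 ± 0.12, and Irf1 averaged 8.42 ± 0.16 in Oral and 8.49 ± 0.08 in Cranial and was not called. In antigen presentation, the class I genes H2-K1 (-0.88 ± 0.12), H2-D1 (-1.01 ± 0.12) and B2m (-0.63 ± 0.14) were lower, as were the immunoproteasome subunit Psmb8 (-1.54 ± 0.11) and the peptide transporter subunit Tap1 (-0.86 ± 0.10). The class II genes H2-Aa, H2-Ab1 and Cd74, which professional antigen-presenting cells express, were not called.

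A separate list of genes upstream of the response showed smaller and fewer differences than the interferon-stimulated list. The contrast depends on how genes were assigned to lists. The separate list, added after these results were seen, held 26 interferon ligands, receptors, signalling kinases and nucleic acid sensors. Of these, 5 (19.2%) were lower and 0 higher, against 6.05% and 3.82% of all genes, with a median difference of -0.02. The lower ones were the sensors Dhx58 (-1.39 ± 0.13) and Tlr3 (-0.95 ± 0.10), the kinases Jak2 (-0.82 ± 0.10) and Jak1 (-0.49 ± 0.10), and the receptor subunit Ifnar2 (-0.49 ± 0.12). The sensors Ifih1 (-1.63) and Ddx58 (-1.08) were lower too. They were counted in the interferon-stimulated list, as were Ifi204 and Stat2 given above. Ifnar2 was not called over all its probe sets (-0.31) or without Cranial replicate 3 (-0.41). The partner receptor subunit Ifnar1 averaged 7.55 ± 0.20 in Oral and 7.48 ± 0.13 in Cranial and was not called, and neither was any measured interferon ligand gene. At the other body sites the levels differed more between arrays: Iigp1 averaged 8.79 ± 2.60 in Dorsal and 7.62 ± 2.08 in Ventral, and Ifit1 7.47 ± 2.25 and 6.83 ± 2.11.

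**Figure D3:**
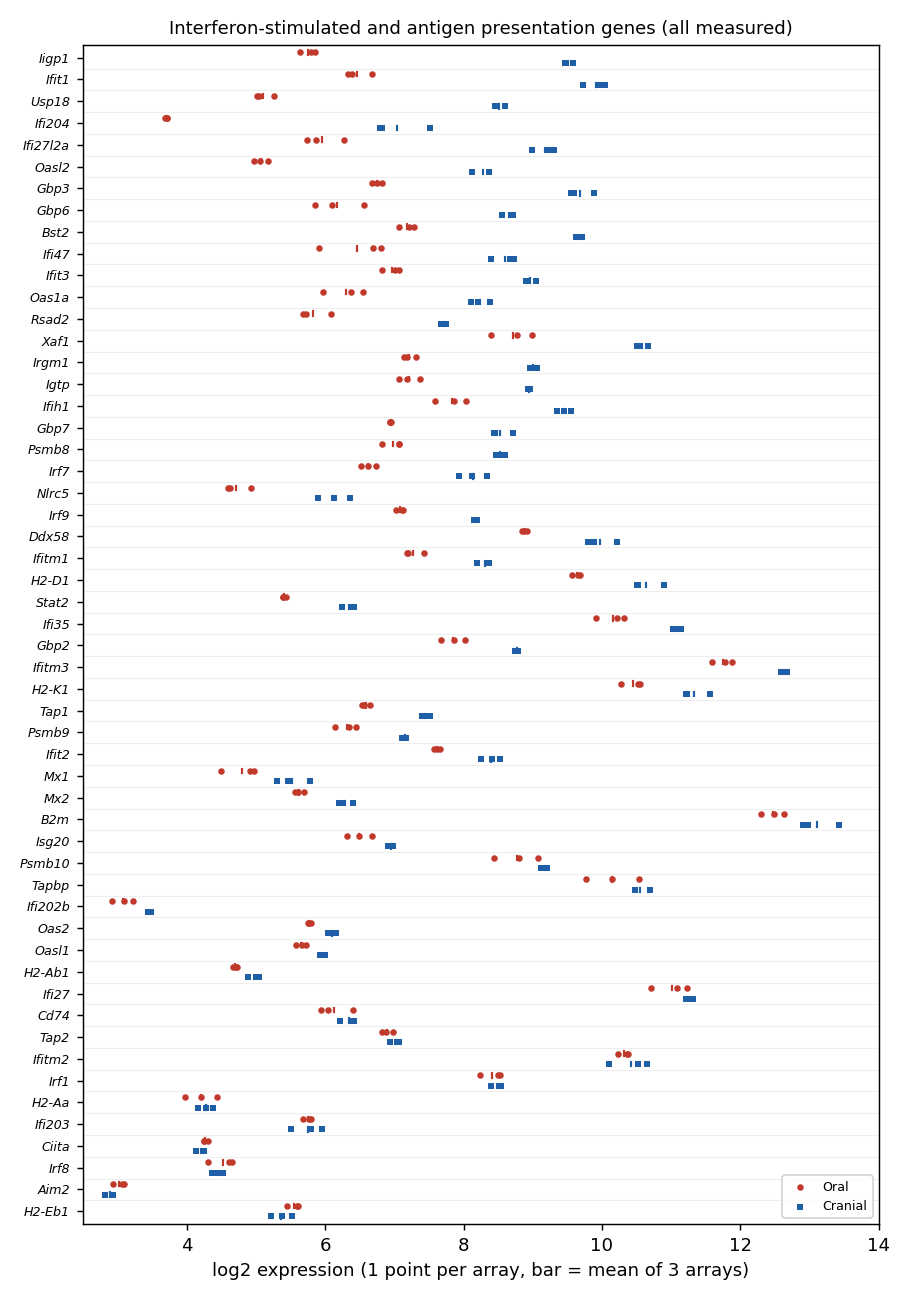
Log2 expression of all 54 measured interferon-stimulated and antigen presentation genes in each Oral array (red circles) and each Cranial array (blue squares), with bars at the means of 3 arrays, ordered by the difference. In the upper rows, from Iigp1 down, all Oral arrays lie left of all Cranial arrays; in the lowest rows, such as H2-Eb1 and Aim2, the groups lie close together.

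Chemokines that attract neutrophils and monocytes were lower in oral cells too. Of 56 chemokine and cytokine genes, 19 (33.9%) were lower and 2 (3.57%) higher, against 6.05% and 3.82% of all genes. The median difference was -0.09, so the difference lay in a subset of the list. Cxcl1, a neutrophil attractant, was at 10.13, 10.55 and 10.55 in Oral and 12.16, 12.15 and 12.44 in Cranial (-1.84 ± 0.13, adjusted p = 1.5e-07). Cxcl2, from the same gene cluster, was at 3.10, 3.43 and 3.17, near background, against 5.43, 5.17 and 5.21, and Cxcl5 averaged 8.72 ± 0.30 against 10.79 ± 0.35. The groups did not overlap in any of these genes. Among the monocyte attractants, Ccl2 (-1.57 ± 0.11), Ccl7 (-1.61 ± 0.12) and Ccl8 (-2.05 ± 0.12) were lower. Il6, the acute-phase cytokine, was at 5.63, 6.18 and 6.39 in Oral and 7.31, 7.29 and 7.36 in Cranial (-1.25 ± 0.15, adjusted p = 4.8e-05). The exceptions in the other direction were Cx3cl1, a membrane-bound chemokine, at 6.92 ± 0.03 in Oral and 5.52 ± 0.04 in Cranial (1.41 ± 0.10), and the scavenging receptor Ackr4 (0.84 ± 0.10). Averaging all probe sets gave 0.48 for Cx3cl1, still called. In the fit that shared spread with Dorsal and Ventral arrays 3 of the 19 lower genes stayed called, and 2 in the fit of all 18 arrays.

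Several of the lower chemokines are known targets of NF-kB, and their promoters are shown for that reason. The motif GGGA, any base and TTTCC was searched on both strands. It was in 4 of 14 promoters of the chemokine and cytokine genes called lower (28.6%) and 1 of 25 of those not called (4%). Its share was 0.547% among genes tested that had a promoter and 0.411% among all promoters. Among all genes called lower it was in 8 of 833 promoters (0.96%), and among those called higher in 4 of 545 (0.734%). The match in Cxcl3 (-0.88), also on chromosome 5, is not shown. Cxcl2 lies at chr5:90903777-90903836, Cxcl1 at chr5:90891149-90891208 and Il6 at chr5:30013045-30013104, all on the plus strand and upstream of the start, with the motif in capitals.
Cxcl2: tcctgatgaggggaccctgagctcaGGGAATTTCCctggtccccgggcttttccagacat
Cxcl1: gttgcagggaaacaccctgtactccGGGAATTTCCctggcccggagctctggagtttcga
Il6: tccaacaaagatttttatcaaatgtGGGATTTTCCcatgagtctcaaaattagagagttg
Cxcl1 and Cxcl2 carry the same 10 letters, and Il6 differs from them within the motif.

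Complement genes followed the same direction. Of 15 measured, 6 (40%) were lower and 1 (6.67%) higher, against 6.05% and 3.82% of all genes. The list's median difference was -0.11. Serping1, the inhibitor of the C1 complex, averaged 8.39 ± 0.16 in Oral and 9.93 ± 0.03 in Cranial (-1.54 ± 0.11, adjusted p = 1.2e-07), and the C1 protease genes C1s1 and C1ra differed by -1.46 ± 0.12 and -1.20 ± 0.12. Cd55, which protects cells from complement, was lower by a difference of -1.66 ± 0.12. The higher gene was Masp1, a protease of the lectin pathway (0.87 ± 0.10), and it was not called without cross-hybridizing probe sets (0.07). None of the 7 was called in the 12-array fit of the 4 body sites.

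Craniofacial patterning factors had the highest share of genes higher in oral cells of any list except the cholesterol enzymes. Of 53 measured, 20 (37.7%) were higher, against 3.82% of all genes, and 4 (7.55%) lower, and the median difference was 0.26. Averaged over the list, the level was 7.01 to 7.05 in the Oral arrays and 6.49 to 6.52 in the Cranial arrays. In the 12-array fit 12 of the 20 stayed called, and 9 in the fit of all 18 arrays. For 18 of the 20 the Dorsal mean, and for 18 the Ventral mean, lay nearer to Cranial than to Oral. Of all 695 higher genes, 502 had the Dorsal mean nearer to Cranial, and 502 the Ventral mean, counted for each site separately.

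The homeobox gene Six2, active in mesenchyme of the face and kidney, led all genes that were higher in Oral. It was at 8.83, 8.59 and 8.52 in Oral and 5.73, 5.53 and 5.55 in Cranial (3.04 ± 0.11, 8.25-fold, adjusted p = 1.2e-10), and its Dorsal and Ventral means of 5.40 and 5.48 were close to the Cranial one. Eya1, a cofactor of Six2 and its relatives, averaged 8.30 ± 0.39 against 5.89 ± 0.17, Eya2 differed by 0.38 ± 0.11, and the related Six4 by 0.89 ± 0.20. Six4 was not called without Cranial replicate 2 (0.79, adjusted p = 0.052) or with an intensity trend in the fit (adjusted p = 0.077). Eya2 was called in only 1 of the 6 fits that left out an array, the one without Oral replicate 3. Averaging all probe sets gave 0.94 for Eya1, still called.

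LIM-homeobox factors of the jaw and palate mesenchyme were higher too. Lhx8 was at 10.89, 10.98 and 10.83 in Oral and 8.08, 7.95 and 8.20 in Cranial (2.82 ± 0.11, adjusted p = 1.4e-10), and its lower Dorsal mean of 6.70 ± 0.10 and Ventral mean of 5.81 ± 0.47 put both head tissues above the body sites. Lhx6, its partner in tooth and palate mesenchyme, averaged 6.12 ± 0.11 against 4.38 ± 0.20. Pitx1, a factor of the lower jaw and hindlimb, was at 7.86, 7.44 and 7.38 in Oral and 5.16, 5.30 and 5.36 in Cranial (2.28 ± 0.13, adjusted p = 1.1e-08). Alx1, a factor of the frontonasal mesenchyme, was at 6.53, 6.81 and 6.91 against 4.34, 4.45 and 4.52 (2.31 ± 0.12, adjusted p = 3.4e-09). No Oral array of these 4 genes fell within the Cranial range. Averaging all probe sets gave 0.96 for Lhx6 and 1.42 for Pitx1, both still called.

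Further factors were graded between the tissues. Pax3, of the early neural crest, averaged 8.95 ± 0.08 in Oral, 7.04 ± 0.04 in Cranial, 5.28 ± 0.12 in Dorsal and 5.40 ± 0.20 in Ventral. Shox2, required for the palate, averaged 9.98 ± 0.23, 8.10 ± 0.13, 7.16 ± 0.36 and 6.90 ± 0.08 in the same order of sites. Tfap2a, an early regulator of the crest, was higher in Oral by 1.85 ± 0.11, and the branchial arch factors Dlx1 and Dlx2 by 1.06 ± 0.15 and 0.76 ± 0.13. Msx1, of the palate and teeth, differed by 0.90 ± 0.11 (0.21 and not called without cross-hybridizing probe sets), and Nr2f1 by 0.83 ± 0.11. The smaller differences were those of Osr2 (0.62), Gsc (0.62), Barx1 (0.60), Pax9 (0.48) and Hand1 (0.43). The 4 lower factors were Twist2, a regulator of dermal fibroblasts (9.05 ± 0.06 against 10.15 ± 0.04), the cartilage regulator Sox9 (-0.62), Hand2 (-0.57) and Dlx5 (-0.52). Several of these smaller calls were lost when 1 array was left out: Gsc without Cranial replicate 3, Pax9 without Cranial replicate 1 or 2 or Oral replicate 3, Hand1 without Cranial or Oral replicate 1 or 3, and Dlx5 without Cranial or Oral replicate 1 or 2. Over all probe sets Hand1 (0.25) and Hand2 (-0.15) were not called.

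Hox genes, which encode position along the body axis and are silent in the most anterior cranial crest, were lower in oral cells where they differed, with a single exception. Of 33 measured, 9 (27.3%) were lower and 1 (3.03%) higher, against 6.05% and 3.82% of all genes. The higher one was Hoxa7, whose arrays overlapped. The median difference was 0.05, and 7 genes were near background in both groups. Hoxd8 was at 5.07, 5.23 and 5.71 in Oral and 9.17, 9.11 and 9.28 in Cranial (-3.85 ± 0.14, 14.4-fold, adjusted p = 1.1e-10). The Dorsal mean was 8.76 ± 0.41 and the Ventral mean 7.87 ± 0.82, with every Ventral array below every Cranial one. Hoxd9 was at 5.91, 5.80 and 5.92 against 8.06, 8.02 and 8.36 (-2.27 ± 0.11). Hoxd3 and Hoxd1 of the same cluster differed by -1.40 and -0.39, Hoxd1 near background in both groups, and Hoxb2 by -0.80 ± 0.14. Of the HoxC genes, Hoxc4 averaged 4.69 ± 0.10 in Oral, 6.58 ± 0.12 in Cranial and 8.24 ± 0.12 in Dorsal, and Hoxc5 differed by -1.77 ± 0.23 (-0.60 over all its probe sets). Hoxc8 was low in both head tissues, at 3.52 ± 0.19 and 4.57 ± 0.04, and at 10.73 ± 0.68 in Dorsal and 10.71 ± 0.13 in Ventral. Hoxa2, which patterns the second branchial arch, was the reverse: 5.02 ± 0.19 in Cranial, and 3.18, 3.35 and 3.23 on average in Oral, Dorsal and Ventral, all near background. In the 12-array fit 6 of the 9 stayed called. Hoxa7 was not called without Cranial or Oral replicate 1 or 3, and Hoxd1 was called only without Oral replicate 3 among the fits that left out an array.

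Patterning factors of the trunk and limb split in both directions. Of 43 measured, 11 (25.6%) were lower and 8 (18.6%) higher, against 6.05% and 3.82% of all genes. Without Cranial replicate 1 the lower ones numbered 7. Zic1, a zinc finger factor of the dorsal neural tube, somites and meninges, was at 3.16, 3.23 and 3.28, near background, in Oral and 7.998, 7.92 and 8.20 in Cranial. The difference of -4.81 ± 0.11 (adjusted p = 1.6e-12) is at least 28.1-fold, and Zic1 averaged 9.59 ± 0.74 in Dorsal and 4.47 ± 0.43 in Ventral. Meis1, a cofactor of Hox proteins, was at 7.29, 7.30 and 7.08 against 9.39, 9.35 and 9.56 (-2.21 ± 0.11, adjusted p = 2.7e-09). Irx2 averaged 6.12 ± 0.12 in Oral and 7.83 in Cranial, with Dorsal and Ventral means of 7.81. The T-box repressors ran the other way: Tbx3 was at 7.75, 7.81 and 7.29 in Oral and 5.08, 4.82 and 5.04 in Cranial (2.64 ± 0.14, adjusted p = 4.4e-09), and Tbx2 averaged 6.03 ± 0.38 against 4.22 ± 0.17. Ebf2 (2.05 ± 0.13), known from fat precursors, and Meox2 (1.56 ± 0.12), from somites, were higher as well. The other higher genes were Gata2 (0.81), Meox1 (0.57), Pax1 (0.57) and Tbx18 (0.52). The other lower genes were Tbx1 (-1.09), Emx2 (-0.84), Meis2 (-0.82), En1 (-0.64), Irx1 (-0.48), Irx5 (-0.46), Lhx2 (-0.43) and Ebf1 (-0.41). Of these Tbx18, Irx1, Irx5, Lhx2 and Ebf1 each lost the call when at least 1 single array was left out. Lhx2 was near background in both groups and En1 in Oral. Averaging all probe sets gave 1.28 for Tbx3, 1.06 for Ebf2 and -1.29 for Meis1, all still called.

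**Figure D4:**
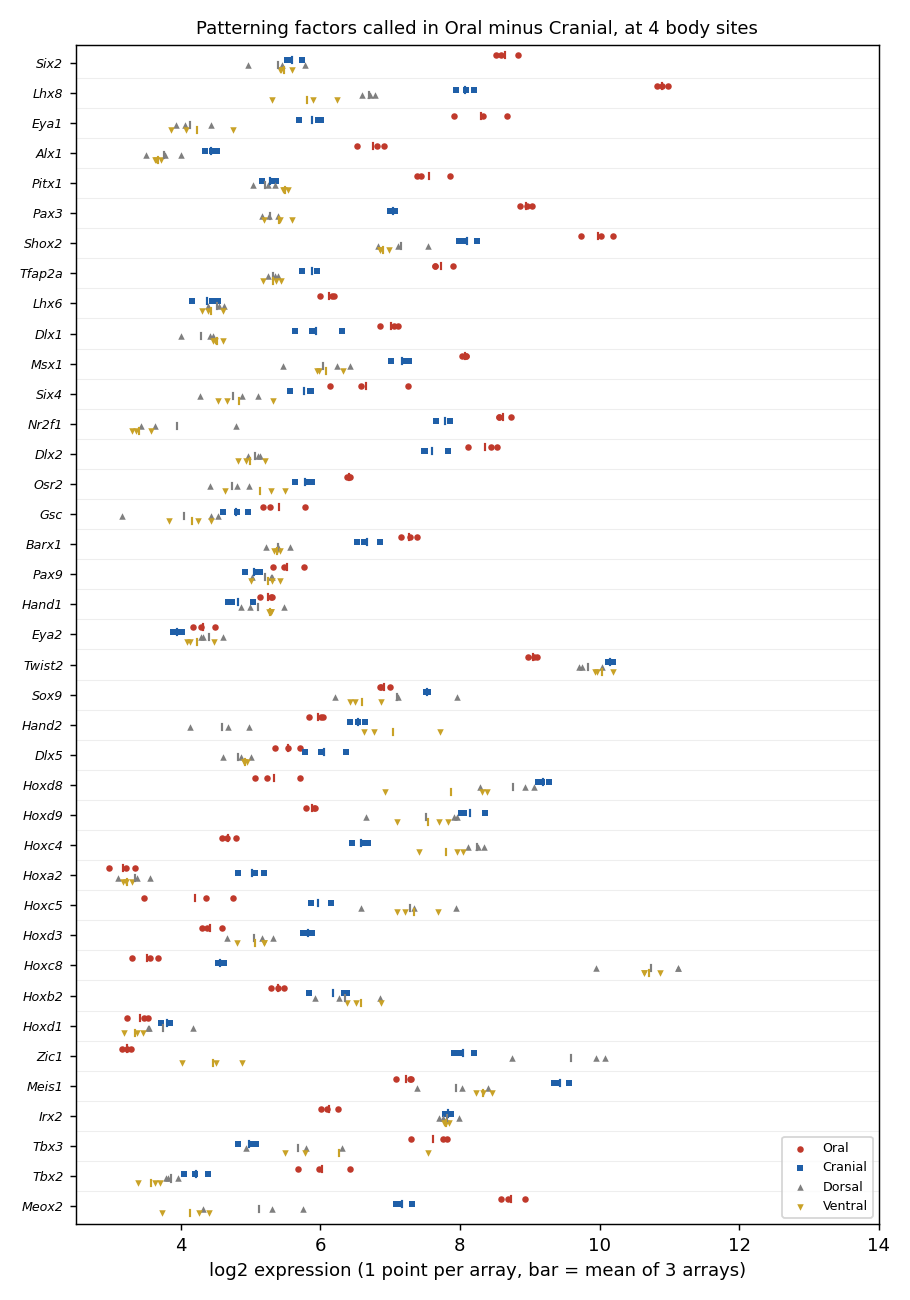
Log2 expression per array of patterning factors called between Oral (red circles) and Cranial (blue squares), with Dorsal (grey triangles) and Ventral (gold inverted triangles) arrays for comparison; bars are means of 3 arrays. From the top are 20 craniofacial factors higher and 4 lower in Oral, 9 Hox genes lower, and Zic1, Meis1, Irx2, Tbx3, Tbx2 and Meox2; Hoxc8 is above 9 only in Dorsal and Ventral.

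Wnt pathway genes were called in both directions, and members of the same family were often opposed. R-spondins are secreted proteins that bind LGR4, LGR5 and LGR6 and raise Wnt receptor levels. Of 42 ligands, receptors and R-spondins, 5 (11.9%) were higher and 6 (14.3%) lower, against 3.82% and 6.05% of all genes. The median difference was -0.02. Beside the lower Lgr5 given above, its relative Lgr4 was at 10.69, 10.996 and 10.86 in Oral and 9.96, 9.89 and 10.16 in Cranial (0.85 ± 0.12, adjusted p = 0.00013), whereas Lgr6 was at 4.40 ± 0.17 and 4.55 ± 0.04 and was not called. Among the R-spondins, Rspo2 was at 9.63, 9.81 and 9.80 in Oral and 7.89, 7.82 and 8.02 in Cranial (1.84 ± 0.11, adjusted p = 1.4e-08). Rspo1 went the other way, with 4.57, 4.14 and 4.43 against 6.32, 6.19 and 5.83 (-1.73 ± 0.14, adjusted p = 5.9e-07), as did Rspo3 (-1.38 ± 0.11). Rspo4 differed by less than 0.01 and was not called.

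The Wnt ligands also moved apart. Wnt5a, a ligand of the non-canonical branch, was at 10.78, 11.004 and 10.87 in Oral and 9.55, 9.48 and 9.86 in Cranial (1.26 ± 0.12, adjusted p = 3.1e-06), with Wnt5b (0.81 ± 0.13) and Wnt11 (0.52 ± 0.11) higher too. Wnt4 was at 8.03, 7.71 and 7.39 against 9.59, 9.54 and 9.68 (-1.90 ± 0.14, adjusted p = 1.9e-07). Of 27 antagonists and targets, 5 (18.5%) were lower and 2 (7.41%) higher, against 6.05% and 3.82% of all genes. The higher ones were Ccnd1 (0.66 ± 0.15) and Axin1 (0.48 ± 0.11), called in 15 and 12 of the 17 alternatives. The lower ones included the target Axin2 (5.74 ± 0.20 against 6.84 ± 0.06), the target Nkd1 (-0.72) and the secreted antagonists Sfrp1 (-1.51 ± 0.10) and Sfrp2 (-1.02 ± 0.13). Averaging all probe sets gave 0.99 for Rspo2, -0.67 for Rspo3 and -0.50 for Axin2, all still called, and -0.23 for Nkd1, not called. Wnt5b was not called without cross-hybridizing probe sets (0.36). In the 12-array fit 3 of the 6 lower and 0 of the 5 higher genes of the first list stayed called, and 1 of the 5 lower genes of the second.

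Among the BMP, TGF-beta and activin genes, 15 of 54 (27.8%) were lower and 4 (7.41%) higher, against 6.05% and 3.82% of all genes. The median difference was -0.14. Without Cranial replicate 1, and without Cranial replicate 2, 1 was higher. Inhbb, a subunit of activin B, was at 5.06, 5.06 and 4.81 in Oral and 7.49, 7.56 and 7.88 in Cranial (-2.67 ± 0.12, adjusted p = 1.3e-09). Bmp5 was at 5.88, 5.36 and 5.39 against 7.90, 7.90 and 8.59 (-2.58 ± 0.18, adjusted p = 1.0e-07), while Bmp6 was higher at 5.95 ± 0.08 against 4.73 ± 0.08 (1.22 ± 0.10). Fst, which sequesters activins, was lower by a difference of -1.26 ± 0.12, as were the receptors Tgfbr3 (-0.995 ± 0.12), Tgfbr1 (-0.74 ± 0.14) and Tgfbr2 (-0.62 ± 0.11). Over all probe sets the differences of Inhbb, Bmp5 and Tgfbr3 were -1.37, -1.07 and -0.49, still called, and that of Tgfbr1 was -0.20, not called (adjusted p = 0.23).

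FGF and IGF genes that differed were nearly all lower in oral cells. Over all genes 6.05% were lower and 3.82% higher. Of 27 FGF pathway genes 7 (25.9%) were lower and 0 higher, led by the ligands Fgf9 (4.97 ± 0.17 against 6.31 ± 0.18) and Fgf7 (9.67 ± 0.11 against 10.69 ± 0.32). Of 18 IGF pathway genes 6 (33.3%) were lower, among them Igf1 (8.09 ± 0.18 against 8.999 ± 0.05), its binding protein gene Igfbp3 (-1.02 ± 0.14) and Pappa, a protease that frees IGF from binding proteins (-1.23 ± 0.12). The exception was Igfbp6, which was higher by 1.10 ± 0.23 and was not called with an intensity trend in the fit (adjusted p = 0.12). Over all its probe sets Fgf9 differed by -0.66, still called. None of 17 hedgehog pathway genes was called.

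Retinoic acid genes were called equally often in both directions. Aldh1a2, the main enzyme of retinoic acid synthesis in mesenchyme, was at 6.66, 6.76 and 7.25 in Oral and 4.95, 4.63 and 4.90 in Cranial (2.07 ± 0.15, adjusted p = 1.3e-07). The carrier Crabp2 averaged 8.83 ± 0.34 against 7.82 ± 0.16, and Aldh1a3 differed by 0.56 ± 0.12. Adh1, an alcohol dehydrogenase that oxidizes retinol, was at 7.79, 7.33 and 7.15 in Oral and 9.85, 9.87 and 9.95 in Cranial (-2.47 ± 0.14, adjusted p = 1.2e-08). Of 24 genes 5 (20.8%) were higher and 5 (20.8%) lower, against 3.82% and 6.05% of all genes. The counts fell to 3 higher and 2 lower without Cranial replicate 3. The higher count fell to 3 without Cranial replicate 1 or Oral replicate 1.

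Axon guidance genes, which also act between mesenchymal and endothelial cells, were among the more frequently called. Of 47 measured, 15 (31.9%) were lower and 9 (19.1%) higher, against 6.05% and 3.82% of all genes. The higher ones numbered 4 without Cranial replicate 1 and 5 without Oral replicate 1. Nrn1, a surface protein that promotes neurite growth, was at 5.27, 5.28 and 4.86 in Oral and 8.51, 8.56 and 8.61 in Cranial (-3.42 ± 0.12, adjusted p = 8.3e-11). Ntn1, the ligand netrin 1, averaged 6.54 ± 0.13 against 8.44 ± 0.18, and Sema3d 5.63 ± 0.30 against 7.38 ± 0.22. The netrin receptor Unc5c was higher in Oral (8.20 ± 0.05 against 7.30 ± 0.10). The neuropilin receptors of class 3 semaphorins were opposed: Nrp1 was higher by 0.84 ± 0.14 and Nrp2 differed by -1.07 ± 0.13. Over all probe sets Ntn1 and Sema3d differed by -0.95 and -0.78, still called.

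Receptors for prostaglandin E2 were lower in oral cells in 3 of 4 cases. Ptger3 was at 4.98, 5.16 and 5.16 in Oral and 8.70, 8.69 and 8.89 in Cranial (-3.66 ± 0.11, 12.6-fold, adjusted p = 1.5e-11). Ptger2 was at 4.39, 4.22 and 4.52 against 6.50, 6.33 and 6.74 (-2.15 ± 0.12), and Ptger4 at 8.22, 8.24 and 8.02 against 9.39, 9.33 and 9.41 (-1.21 ± 0.10). The groups were apart in all 3 genes, whereas Ptger1 averaged 6.26 ± 0.17 and 6.05 ± 0.19 and was not called. Hpgd, the enzyme that inactivates prostaglandins, was higher (8.78 ± 0.14 against 7.34 ± 0.06), as was the prostaglandin transporter gene Slco2a1 (0.58 ± 0.12). Ptgs2, the inducible cyclooxygenase, was at 10.69, 11.60 and 11.49 in Oral and 11.54, 11.45 and 11.63 in Cranial and was not called. In the whole pathway of 19 genes 5 (26.3%) were lower and 3 (15.8%) higher, against 6.05% and 3.82% of all genes. Over all probe sets Ptger3 differed by -1.78, and Hpgd by 0.51 without cross-hybridizing probe sets, both still called; over all its probe sets Slco2a1 differed by 0.23 and was not called.

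Enzymes of cholesterol synthesis were shifted upward by small amounts. Of 20 measured, 8 (40%) were higher and 0 lower, against 3.82% and 6.05% of all genes. Differences above 0 were found in 19 of the 20, and in 59.3% of all genes. The median difference was 0.31, against 0.04 over all genes. Mvd averaged 8.32 ± 0.29 in Oral and 7.56 ± 0.04 in Cranial (0.76 ± 0.13, adjusted p = 0.0013), and Mvk 8.23 ± 0.20 against 7.64 ± 0.09. Lss differed by 0.73 ± 0.11, but by 0.14 (not called) without cross-hybridizing probe sets. This count depended on single arrays and on the scaling. It was 4 without Cranial replicate 1, Cranial replicate 2, Oral replicate 1 or Oral replicate 2, 0 in the 12-array fit, 13 after quantile normalization and 18 with array weights.

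Among the matrix genes, several proteoglycans and less abundant collagens were called and the main fibril collagens were not. Col1a1 averaged 13.23 ± 0.20 in Oral and 13.22 ± 0.20 in Cranial, and Col1a2 13.88 ± 0.18 and 13.89 ± 0.30; neither was called. Of 38 collagens 6 (15.8%) were higher and 2 (5.26%) lower, against 3.82% and 6.05% of all genes. The higher ones were led by the basement membrane collagen Col18a1 (9.15 ± 0.22 against 8.05 ± 0.04). Smaller differences followed in Col5a3 (0.695 ± 0.11), Col14a1 (0.64 ± 0.11) and the basement membrane collagens Col4a1 (0.64 ± 0.11) and Col4a2 (0.64). Col11a1 (0.50 ± 0.12) was called in 10 of the 17 alternatives. The lower ones were Col23a1, a transmembrane collagen (5.71 ± 0.27 against 7.64 ± 0.16), and Col4a5 (-1.28 ± 0.16). Small leucine-rich proteoglycans, which bind collagen fibrils and set their spacing, were called mostly but not always lower. Dcn (decorin) was at 10.82, 10.82 and 10.76 in Oral and 12.57, 12.58 and 12.99 in Cranial (-1.91 ± 0.12, adjusted p = 3.7e-08), and Lum (lumican) at 9.28, 9.37 and 9.29 against 11.10, 11.16 and 11.46 (-1.93 ± 0.11, adjusted p = 1.7e-08). Aspn (-1.35 ± 0.12) and Epyc (-1.95 ± 0.14, near background in Oral) followed, with Prelp (-0.81; -0.16 and not called without cross-hybridizing probe sets) and Kera (-0.65). Omd (osteomodulin) was higher, at 6.76, 6.78 and 7.05 in Oral and 6.42, 6.42 and 6.38 in Cranial (0.46 ± 0.11, adjusted p = 0.013), and was not called without Cranial replicate 1. Bgn (biglycan) averaged 13.61 ± 0.12 and 13.71 ± 0.28 and was not called. In all, 7 of 33 proteoglycan genes (21.2%) were lower and 3 (9.09%) higher: Omd, Cspg4 (1.05) and Has2 (0.39), the last called only without Oral replicate 3 among the fits that left out an array.

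Among glycoproteins and elastic fibre genes 16 of 56 (28.6%) were lower and 8 (14.3%) higher, against 6.05% and 3.82% of all genes. The larger differences were the higher ones. Adamtsl3, an ADAMTS-like matrix protein, was at 9.39, 9.45 and 9.31 in Oral and 7.06, 6.76 and 7.04 in Cranial (2.43 ± 0.11, adjusted p = 1.1e-09). Tnn (tenascin N) was at 9.25, 9.58 and 9.56 against 7.41, 7.33 and 7.48 (2.05 ± 0.11, adjusted p = 9.8e-09). Sparcl1 (1.88 ± 0.12) and Thbs4 (1.70 ± 0.11) were higher too. The lower genes included Ccn3 (-1.32 ± 0.12), the microfibril gene Mfap4 (-1.13 ± 0.13), Fbln1 (-0.74 ± 0.10) and Eln, which encodes elastin (-0.73 ± 0.12); over all its probe sets Fbln1 differed by -0.46, still called. In the 12-array fit 3 of the 8 higher and 0 of the 16 lower genes stayed called.

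Most genes of collagen processing and of matrix proteolysis were not called. Of 22 collagen crosslinking and processing genes 4 (18.2%) were higher, 1 (4.55%) was lower and 17 were not called. Over all genes 3.82% were higher and 6.05% lower. Plod2, which hydroxylates telopeptide lysines for crosslinks, was at 9.18, 9.22 and 9.07 in Oral and 7.89, 7.55 and 7.99 in Cranial (1.35 ± 0.12, adjusted p = 1.8e-06), and the prolyl hydroxylase gene P3h2 averaged 7.09 ± 0.06 against 5.72 ± 0.20. The transglutaminase gene Tgm2 (1.17 ± 0.16) and the procollagen protease gene Tll1 (0.74 ± 0.13) were also higher, and the lysyl oxidase gene Lox was lower (-0.62 ± 0.12). Of 51 protease and inhibitor genes 15 (29.4%) were lower, 3 (5.88%) higher and 33 not called. The higher ones were Adamts12 (0.76), Adam19 (0.56) and Plau (0.48, not called without Cranial replicate 2 or Oral replicate 1). Pcsk5, a proprotein convertase, was at 7.82, 7.89 and 7.35 in Oral and 11.11, 11.03 and 11.25 in Cranial (-3.44 ± 0.14, 10.9-fold, adjusted p = 2.1e-10). Mmp13, a collagenase, was at 4.15, 4.41 and 4.26 against 6.61, 6.38 and 7.09 (-2.42 ± 0.15), and Adamts15 differed by -1.84 ± 0.12. Over all probe sets Pcsk5 differed by -1.56 and Adamts12 by 0.39, both still called. Adamts16 differed by -1.01 ± 0.14, but by 0.11 (not called) with the probe set brightest on these 6 arrays.

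**Figure D5:**
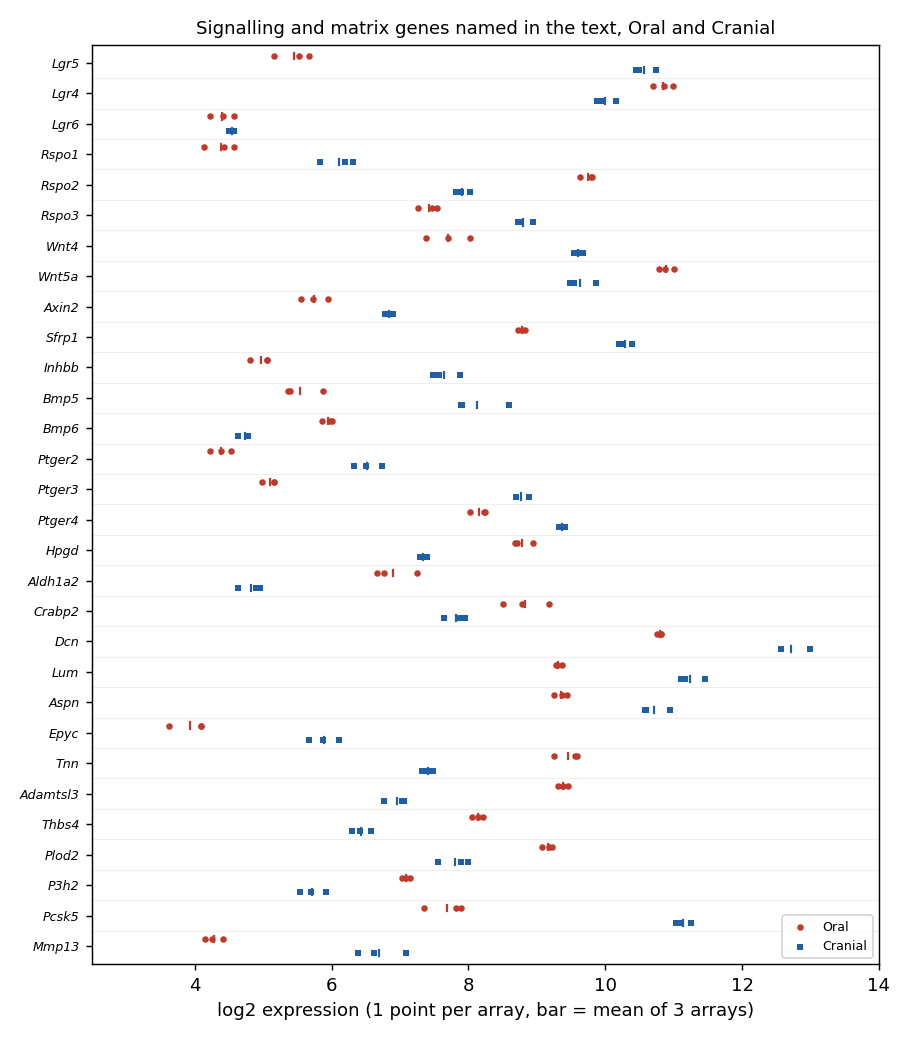
Log2 expression of 30 signalling and matrix genes in each Oral array (red circles) and each Cranial array (blue squares), with bars at the means of 3 arrays. Within the R-spondin, prostaglandin receptor and proteoglycan rows the groups lie apart; Lgr5, at the top, has the widest gap and Lgr6 overlaps.

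Markers of every dermal fibroblast subset were called in both directions. Over all genes 6.05% were lower and 3.82% higher. Papillary genes, of the upper dermis, were lower in 9 of 21 cases (42.9%), including Col23a1, Ntn1, Rspo1, Axin2 and Prdm1 (4.48 ± 0.37 against 5.92 ± 0.08), and higher in 2, Trps1 (10.05 ± 0.25 against 8.43 ± 0.11) and Col18a1. Reticular and hypodermal genes were lower in 6 of 19 (31.6%), with Dcn and the myosin phosphatase inhibitor Ppp1r14a (-1.69 ± 0.11) among them, and higher in 3. Of 26 dermal papilla and sheath genes, markers of the hair follicle mesenchyme, 6 (23.1%) were higher and 4 (15.4%) lower. The higher ones were Rspo2, Trps1 and Bmp6, given above, with Hey1 (0.67), Tbx18 (0.52) and Bmp4 (0.36), the last not called in 5 of the 6 fits that left out an array. The lower ones were Rspo3, Fgf7, Vcan (-0.75) and Prom1, which was at 4.63, 4.68 and 4.37 in Oral and 7.16, 7.12 and 7.28 in Cranial (-2.62 ± 0.11, adjusted p = 4.2e-10). Among 20 general fibroblast genes 5 (25%) were lower and 0 higher with a median of 0.00, and Pdgfra was high in both groups, at 11.85 ± 0.08 and 12.39 ± 0.16. Pdgfra, which marks fibroblasts in most tissues, was lower in Oral (-0.54 ± 0.11, adjusted p = 0.0048).

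Markers of other cell types were low and differed little. Of 31 keratinocyte and hair follicle genes 1 was called (Perp, -1.43 ± 0.14), of 23 oral and salivary epithelium genes 0, of 26 endothelial genes 2, lower (Clec14a, -0.94, and Flt1, -0.81), and of 8 erythroid genes 0. Over all genes 9.87% were called. Averaged over these lists the arrays lay between 4.44 and 4.99. Epcam, whose protein the sort excluded, averaged 8.76 ± 0.16 in Oral and 8.46 ± 0.21 in Cranial and was not called. These Epcam levels come from a cross-hybridizing probe set and may include other transcripts. Wnt1 averaged 5.35 ± 0.10 and 5.02 ± 0.21 and was not called. Leukocyte genes, given here beside the interferon and chemokine groups, were lower in 3 of 35 cases (8.57%, against 6.05% of all genes). Of the 35, 8 were near background in both groups, Ptprc among them. The list averages were 4.75 to 4.94 in Oral and 4.85 to 4.92 in Cranial. The 3 were Lyz2 (-0.61), Cd53 (-0.53) and Lyz1, at 8.12, 6.84 and 6.69 in Oral and 8.25, 8.06 and 8.44 in Cranial, which overlapped and was not called without Cranial replicate 1 or 3 or Oral replicate 2 or 3. Lyz2 was not called without Cranial or Oral replicate 2 or 3, nor Cd53 without Cranial or Oral replicate 2, and without cross-hybridizing probe sets Lyz1 differed by -0.07.

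Crest-derived lineages other than fibroblasts and contractile cells gave mixed results. Of 20 Schwann cell and nerve genes 3 (15%) were higher (Scn7a, 0.91, L1cam, 0.56, and Ncam1, 0.42) and 0 lower, with list averages of 6.36 to 6.42 in Oral and 6.21 to 6.25 in Cranial; Sox10 was not called. Of 15 melanocyte genes 2 (13.3%, against 6.05% of all genes) were lower, Mitf (-0.91 ± 0.11) and Ednrb (-0.43). Ednrb (-0.16) and Ncam1 (0.24) were not called over all their probe sets, and both lost the call when single arrays were left out, Ednrb in 4 of 6 fits and Ncam1 in 5. Of 30 skeletal muscle genes 3 (10%, against 3.82% of all genes) were higher, among them Acta1 (7.09 ± 0.23 against 6.41 ± 0.04). Mural and smooth muscle genes split, with 5 of 24 (20.8%) higher and 4 (16.7%) lower: the pericyte channel genes Kcnj8 (5.14 ± 0.10 against 6.65 ± 0.07) and Abcc9 (-1.96 ± 0.11) were lower and Cspg4 (9.10 ± 0.36 against 8.05 ± 0.15) higher, while Acta2 averaged 13.51 ± 0.18 and 13.42 ± 0.21 and was not called. Abcc9 differed by -0.26, not called, with the probe set brightest on these 6 arrays. In the list of perineurial and meningeal genes 5 of 20 (25%) were lower, among them Zic1 and the tight junction gene Cldn1 (-1.58), and 3 (15%) higher, among them Aldh1a2 and Crabp2. Over all its probe sets Cldn1 differed by -0.41, still called. The part of these other cell types in the differences was not tested.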

How the data were processed

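Expression was measured on Affymetrix Mouse Genome 430 2.0 arrays. Per the series' design text, the authors ran RMA and quantile normalization in R, and the deposited values are log2 expression with a column for each array. Neither software versions nor the set of arrays normalized together is given in the sources used. RNA was phenol-chloroform extracted, cleaned on columns and converted to cDNA, per the labels' protocols.

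Of 45101 probe sets, 64 were controls, 34945 carried 1 gene symbol in the platform annotation, 932 several and 9160 none; 34741 of the former matched the GRCm38.p6 gene table by Entrez identifier. Each of the 18193 genes was represented by its brightest probe set, judged by the mean of all 18 arrays, since 9010 genes had more than 1. Oral minus Cranial was fitted on the 6 arrays by lmFit and eBayes of limma 3.58.1, run in R 4.3.3, without a replicate block, and p-values were adjusted by Benjamini-Hochberg over all genes, with no filter on dim genes. The code was tested on simulated data. Tables and plots used Python 3.11.15, pandas 2.3.3, numpy 2.4.6 and matplotlib 3.10.9. The number of arrays limits the precision.

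The comparison and the 44 gene lists were chosen with earlier results of these data known, and 1 list (interferon ligands, receptors and sensors) was added later. Genes to name were drawn from the 15 largest called differences per direction without overlap, the 6 most different called members of each list in each direction (any called member of the patterning lists), and sort, lineage and sex-linked genes; not every gene so selected is described. These were named after their values were seen: Gbp3, Bst2, Rsad2, Gbp7, Irf7, Irf9, Irf1, Stat2, the antigen presentation genes, Il6, Lgr6, Rspo4, Ptger1, Ptgs2, Col1a1, Col1a2, Bgn, Sox10, Acta2, Ifnar1, Tgfbr2 and Aim2. Ifih1, Ddx58, Cxcl3 and Kitl were also named after their values were seen. Cross-hybridizing probe sets are those whose identifiers end in _x_at or _s_at. Alternatives were other probe set rules, filters, scalings and variance models, fits with further arrays, a replicate block and each array left out.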

Additional observations from a re-analysis of the deposited data

How the results depend on the processing

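Of the called genes, 144 were called in all of the 17 alternatives that measure them, 119 of these among the 337 at least 2-fold; every gene called both here and in an alternative kept its direction. With the Dorsal and Ventral arrays in the same fit (12 arrays), 207 genes were called (74 higher, 133 lower, 149 at least 2-fold), and with all 18 arrays 178 (64 higher, 114 lower, 145 at least 2-fold). In these fits the craniofacial factors called higher numbered 12 and 9 (20 in the fit of 6 arrays), the chemokines and cytokines called lower 3 and 2 (19), and the interferon-stimulated genes called lower 6 and 10 (39). Array weights gave 3308 calls, 1885 higher and 1423 lower, and quantile normalization of the 6 columns 1094 higher and 1202 lower. Leaving out dim genes, which removes genes from the tests, left 11 craniofacial factors higher, 2 Hox genes lower and 12 chemokines and cytokines lower. Leaving out each array in turn gave 1164 to 2282 calls, 377 to 1231 of them higher. Of the 295 genes that the naming rule selects 203 were no longer called in the 12-array fit and 209 in the fit of 18.

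With the replicate number as a block, 1512 genes were called (1465 shared). Deviations of same-numbered arrays from their group means correlated at 0.06, -0.38 and -0.25. With 3 arrays per group this cannot show whether the numbers pair animals, which the labels do not say. These differences changed sign, and the cause was not tested: Adamts16 with the brightest probe set of the 6 arrays (0.11); Ptprc with the mean of all probe sets (-0.024), after quantile normalization (-0.0154) and when single arrays were left out (range -0.0435 to 0.0828); Uty without Oral replicate 1 (-0.0411, range over left-out arrays to 0.1374); Xist with the mean of all probe sets (-0.12), without cross-hybridizing probe sets (-0.27) and when single arrays were left out (range -0.0999 to 0.0969). Of these only Adamts16 had been called. Of 1063 called genes with further probe sets, 420 had another called the same way, 4 the opposite way and 640 none. Near background the array gives only bounds: 57 lower calls had such an Oral mean and 31 higher calls such a Cranial mean.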

Other observations

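Immediate early and stress genes, which can be induced while tissue is dissociated and sorted, were called in both directions. Of 49 measured, 10 (20.4%) were lower in Oral and 4 (8.16%) higher, against 6.05% and 3.82% of all genes. The median difference was -0.08, and list averages were 10.02 to 10.22 in Oral and 10.15 to 10.35 in Cranial. The largest were Nfkbiz, a regulator of inflammatory genes (-0.72), and Gadd45b (0.60), the latter not called without Cranial replicate 2. The lower count was 1 without Cranial replicate 3, 4 without Cranial replicate 2 or Oral replicate 3, 5 without Cranial replicate 1, and 0 in the 12-array fit. Of 42 cell cycle genes 3 (7.14%) were higher and 1 (2.38%) lower, the latter Cdkn1c, a growth inhibitor (-0.71), so these genes were called about as often as all genes (9.87%).

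Adipocyte lineage genes were called in both directions. Of 21 measured, 5 (23.8%) were higher and 3 (14.3%) lower, against 3.82% and 6.05% of all genes. Lpl, which releases fatty acids from lipoproteins, was at 10.85, 10.67 and 10.79 in Oral and 12.77, 12.76 and 13.11 in Cranial (-2.11 ± 0.12), and Pparg, the main regulator of fat cells, was lower too (-0.86), as was Cebpa (-0.37). The higher ones were Ebf2 (2.05), Zfp423 (0.87), Dgat2, an enzyme of triglyceride synthesis (0.58), the fatty acid carrier Fabp4 (0.51) and the desaturase Scd1 (0.44). Fabp4 overlapped between the groups and was not called over all its probe sets (0.25). Scd1 was not called without Cranial replicate 1 or 2, and Cebpa was called only without Oral replicate 1 among the fits that left out an array. Without Cranial replicate 1 or 2 the higher genes numbered 3. Itgbl1, an integrin-like secreted protein, was lower at 6.44 ± 0.08 against 8.99 ± 0.05 (-2.55 ± 0.10). Kitl, the ligand of the KIT receptor of melanocytes and mast cells, averaged 7.56 ± 0.12 in Oral and 9.11 ± 0.19 in Cranial (-1.55 ± 0.12).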
